A study of Mus musculus with 2084 samples.

Results

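The 9 genes described here, Ptch1, Smo, Boc, Cdon, Gas1, Sufu, Gli1, Gli2 and Gli3, carry the Hedgehog signal from the cell surface to the nucleus. They were chosen by name, as the core receptors, co-receptors and effectors of the pathway, and are 9 of the 35606 gene identifiers in the deposited RNA count table. All 9 were present in the table and passed the filter on low counts in each of the 6 models fitted below. They were followed across the cell types of the adult neural stem cell lineage, across astrocytes of 3 brain regions, and across naive, ischemic and interferon receptor knockout mice.

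On build GRCm38, the receptor Ptch1 lies at chr13:63508328-63573598, Smo at chr6:29735503-29761365, Boc at chr16:44485049-44558897, Cdon at chr9:35421128-35507652, Gas1 at chr13:60174405-60177365 and Sufu at chr19:46396896-46488804. Gli1 lies at chr10:127329882-127341974, Gli2 at chr1:118834132-119053619 and Gli3 at chr13:15463235-15730026. Exons of Gli1, Gli3 and Gas1 overlap exons of genes on the opposite strand (Arhgap9 and Gm47200, Gm6556, and Gm48488), and reads of such partners cannot be told apart unless the counting used strand, which is not stated.

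In the Hedgehog pathway the ligand binds the receptor Ptch1 together with one of the co-receptors Boc, Cdon or Gas1, and this lifts the block that Ptch1 keeps on the transducer Smo. Active Smo works in the primary cilium, where it frees the Gli transcription factors from Sufu. Gli1 and Ptch1 are themselves transcriptional targets of the pathway, Gli2 acts mainly as an activator, and Gli3 is largely processed to a repressor. In the ventricular-subventricular zone (vSVZ), the niche along the lateral ventricle, Hedgehog signaling is known for its part in stem cell maintenance and in the identity of ventrally derived progeny.

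The study measured the RNA of single sorted cells with Smart-seq3, the transcriptome part of a combined RNA, methylation and accessibility assay. Cells came from the vSVZ, striatum, cortex or olfactory bulb of mice in preparations named by letters (pA to pM), each of 1 or more mice. Wild-type (WT) mice (pA to pF) were naive and received neither tamoxifen nor ischemia, and preparation pL was a naive WT carrying a TCF-Lef reporter. In TiCY mice, tamoxifen given at 2 months of age labels cells expressing Tlx, a stem cell gene, and their progeny with enhanced YFP. TiCY mice were naive (pM) or were killed 2 days (pI) or 21 days (pH) after bilateral occlusion of the carotid arteries, performed 2 weeks after tamoxifen. Preparation pJ held mice lacking the receptors for type I and type II interferon, labelled IFN(A/G)R KO when naive and TiCY-IFN(A/G)R KO 2 days after ischemia. The lineage runs from quiescent stem cells (qNSC1, then qNSC2) through active stem cells (aNSC) and transit-amplifying progenitors (TAP) to neuroblasts. Counts of the cells of one type, or of one surface sort, in one preparation were summed when there were at least 3 cells, and levels are given as CPM, the counts scaled to a common total over all genes of the sum. These sums are the replicates, so p-values measure the spread between preparations, except in the models by time and genotype within 1 region. Those hold 5 sums and 1 residual degree of freedom each, and take their spread from the trend over all genes. A level in a sum does not separate fewer expressing cells from less RNA per cell. Where groups are said not to overlap, the share of all genes that did so was not counted.

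The 1981 cells used had a median total of 160621 counts each. By preparation and treatment, median totals ranged from 110133 to 1000343, and they were highest in pA, pB and pE (648839 to 1000343). Defining markers were checked against the labels: 6 oligodendrocyte markers summed to 52140 to 81780 CPM in WT oligodendrocytes, and 6 astrocyte markers to 84.5 to 357 CPM in the sort titled NB and to 25710 to 48940 CPM in the sort titled NSC of pA, pB and pC. The WT sort titled ASTRO held cells labelled as qNSC1, qNSC2, aNSC, TAP and neuroblast and none labelled astrocyte. Ifngr1, a subunit of the missing interferon receptor, was at 0.0981 to 2.14 CPM in the 4 GLAST sorts of the knockout mice and at 9.03 to 34.2 CPM in the 6 GLAST sorts of TiCY mice. Ifnar1 was at 8.90 to 21.4 CPM in the knockout sorts and 33.1 to 84.7 CPM in the TiCY sorts, and Ifnar2, which overlapped, at 15.1 to 97.2 and 20.8 to 54.6 CPM. Libraries of pH to pM were not compared in level with those of pA to pF. Type labels may rest on these same transcriptomes, so p-values between labelled types describe the labels, whereas the surface sorts do not depend on RNA.

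Sequences just upstream are shown for the 4 members whose window lay outside the annotated gene and its exons. They were not chosen by expression. Of these, Gli2 and Gas1 were lower in both WT neuroblasts and oligodendrocytes. Smo was called lower in WT oligodendrocytes but not in WT neuroblasts, and Sufu passed no test. Each is the 250 bases before the RefSeq start of the gene on its own strand (build GRCm38.p6), written 5′ to 3′, with each GC box, the letters GGGCGG or CCGCCC, in capitals. The windows lie at chr1:119053620-119053869 on the minus strand (Gli2), chr13:60177536-60177785 on the minus strand (Gas1), chr6:29735247-29735496 on the plus strand (Smo) and chr19:46396646-46396895 on the plus strand (Sufu), all outside annotated exons.
Gli2: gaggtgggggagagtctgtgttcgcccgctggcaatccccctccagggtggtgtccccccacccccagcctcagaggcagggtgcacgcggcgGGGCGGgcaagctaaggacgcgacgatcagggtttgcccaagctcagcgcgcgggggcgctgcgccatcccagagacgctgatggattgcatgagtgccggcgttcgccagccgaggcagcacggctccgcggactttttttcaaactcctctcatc
Gas1: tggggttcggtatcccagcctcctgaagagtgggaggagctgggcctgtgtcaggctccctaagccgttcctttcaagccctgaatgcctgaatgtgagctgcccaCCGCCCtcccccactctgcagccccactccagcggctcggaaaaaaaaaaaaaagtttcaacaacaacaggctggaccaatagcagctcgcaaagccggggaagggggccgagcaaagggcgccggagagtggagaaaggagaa
Smo: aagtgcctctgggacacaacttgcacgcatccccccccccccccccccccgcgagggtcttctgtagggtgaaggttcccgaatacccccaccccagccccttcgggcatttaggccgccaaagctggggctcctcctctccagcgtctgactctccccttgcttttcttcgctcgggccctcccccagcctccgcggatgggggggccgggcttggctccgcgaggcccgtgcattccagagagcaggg
Sufu: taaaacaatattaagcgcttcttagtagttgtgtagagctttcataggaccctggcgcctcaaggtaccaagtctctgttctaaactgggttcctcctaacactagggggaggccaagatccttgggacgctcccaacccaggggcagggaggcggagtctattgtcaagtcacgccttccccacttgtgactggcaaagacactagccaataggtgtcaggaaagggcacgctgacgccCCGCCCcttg
The 250 bases shown for Gli2, Gas1 and Sufu held 1 GC box each and those for Smo held 0. Of 32851 promoter windows, 35.7% held at least 1 on either strand. That share was counted over the whole RefSeq window and not its first 250 bases, so it is not a like measure. The Gli2 window had 22 CpG dinucleotides and 67.2% G or C, the Smo window 15 and 68.4%, the Gas1 window 10 and 58.8%, and the Sufu window 8 and 54.0%. The Gli consensus GACCACCCA, searched on both strands of whole windows, was in 0 of the 7 member windows and in 0.253% of all windows.

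**Figure D1:**
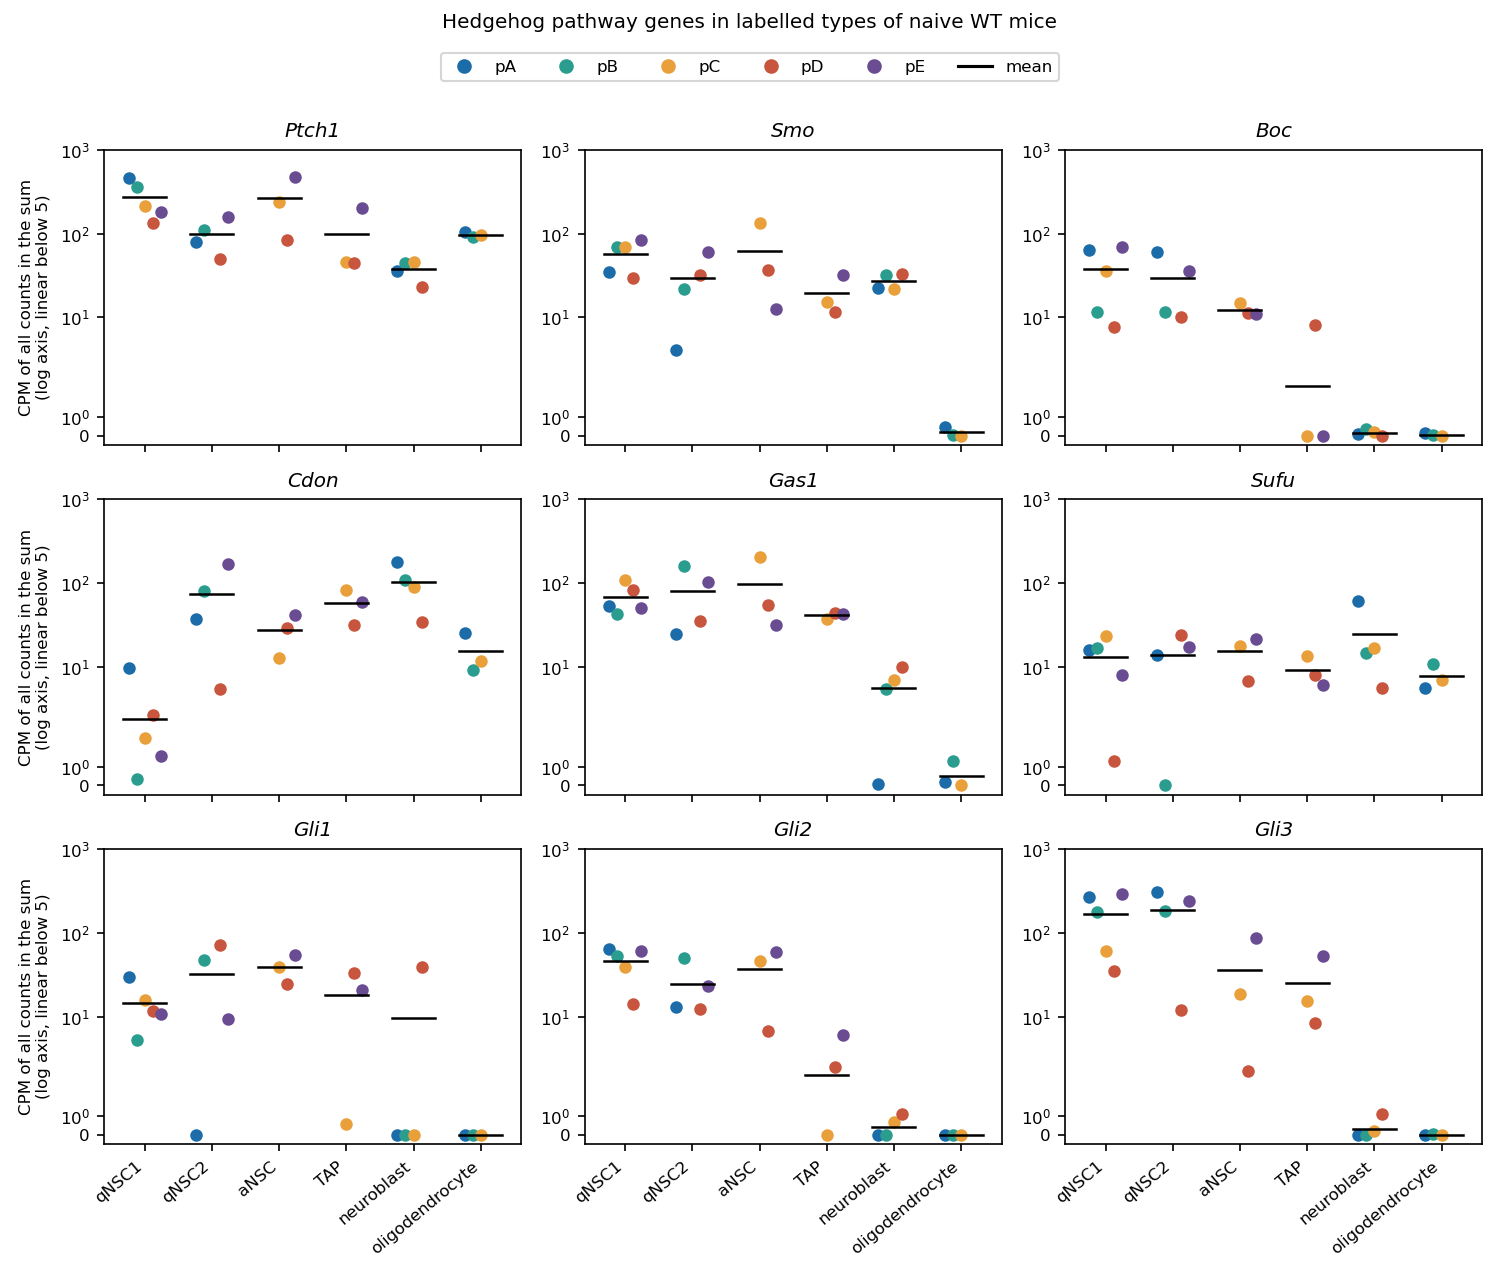
Level of each of the 9 genes in the WT cell types, in CPM on a log axis that is linear below 5, with 1 point per preparation, colored by preparation, and a black line at the mean. Gli2, Gli3 and Boc drop to below 2 CPM in neuroblasts and oligodendrocytes, while Cdon is lowest in qNSC1 and highest in neuroblasts.

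Along the WT lineage, the receptor Ptch1, the co-receptors Boc and Gas1 and the effectors Gli2 and Gli3 were lower in neuroblasts than in qNSC1 cells, and the co-receptor Cdon was higher. Compared per kilobase of exon, qNSC1 cells had the most Gas1 (22.98 CPM per kb), Ptch1 (19.03), Gli3 (17.2) and Smo (10.3), followed by Boc (8.41), Gli2 (6.71), Gli1 (2.93) and Sufu (1.70), with Cdon at the bottom (0.462). In neuroblasts the order was turned: Cdon was at the top with 13.4 CPM per kb, followed by Smo at 4.86 and Sufu at 3.18, while Gli2, Boc and Gli3 were at or below 0.065 CPM per kb. Between neuroblasts and qNSC1, 5 of the 9 members fell and 1 rose in edgeR's quasi-likelihood test with Benjamini-Hochberg adjustment (adjusted p below 0.05), against 12.4% of the 14915 genes tested. The median log2 fold change of the 9 members was -2.98, against -0.17 for all genes.

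Ptch1, the ligand receptor, was at 461, 362, 215, 132 and 179 CPM in qNSC1 cells of pA, pB, pC, pD and pE. In neuroblasts it was at 36.1, 44.8, 46.0 and 23.3 CPM in pA to pD, lower in each preparation and with no overlap between the groups. It fell by 2.98 ± 0.59 (SE) on the log2 scale (edgeR, adjusted p = 0.0019). In oligodendrocytes, which held 104, 90.4 and 94.9 CPM in pA, pB and pC, Ptch1 was also below qNSC1 in 3 of 3 preparations, but the log2 difference of -1.24 did not pass (edgeR, adjusted p = 0.23). Per kilobase, Ptch1 was the most abundant member in oligodendrocytes (6.79 CPM per kb), followed by Cdon (2.01) and Sufu (1.01).

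Smo, the transducer held in check by Ptch1, was at 57.7 ± 24.0 CPM in qNSC1 (SD, n = 5) and 27.3 ± 6.11 CPM in WT neuroblasts (SD, n = 4), and its log2 difference of -1.19 did not pass (edgeR, adjusted p = 0.38). In oligodendrocytes it was near 0, with 0.492, 0.036 and 0 CPM in pA, pB and pC. There it fell by 8.15 ± 1.32 (SE) on the log2 scale from qNSC1 (edgeR, adjusted p = 0.00024).

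The 3 co-receptors went different ways. Boc was at 63.2, 11.7, 36.1, 7.58 and 68.7 CPM in qNSC1 of pA to pE, and at 0.0768, 0.347, 0.225 and 0 CPM in neuroblasts of pA to pD. Every neuroblast sum lay below every qNSC1 sum, and it fell by 7.57 ± 1.53 (SE) on the log2 scale (edgeR, adjusted p = 0.0023). Gas1, a co-receptor anchored to the membrane by a lipid, was at 68.0 ± 27.6 CPM in qNSC1 (SD, n = 5) and at 0.0768, 5.42, 6.98 and 9.99 CPM in neuroblasts of pA to pD. It fell by 3.76 ± 1.04 (SE) on the log2 scale (edgeR, adjusted p = 0.021).

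Cdon, a paralog of Boc, moved the opposite way. In qNSC1 it was at 9.61, 0.318, 2.52, 3.79 and 1.58 CPM in pA to pE, and in neuroblasts at 179, 110.5, 89.0 and 34.4 CPM in pA to pD. Each neuroblast sum was above each qNSC1 sum, and Cdon rose by 4.64 ± 0.91 (SE) on the log2 scale (edgeR, adjusted p = 0.0017). Within the quiescent compartment, Cdon was at 37.4, 80.3, 5.46 and 172 CPM in qNSC2 of pA, pB, pD and pE, higher than in qNSC1 in 4 of 4 preparations. That log2 difference of 4.11 ± 0.89 (SE) did not pass in edgeR (adjusted p = 0.074, and 0.068 with preparation as a block), whereas DESeq2 called it (adjusted p = 3.5e-05). In aNSC and TAP, Cdon was at 27.99 ± 14.8 and 58.0 ± 26.0 CPM (SD, n = 3 each).

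Sufu, the cytoplasmic inhibitor of the Gli proteins, was at 7.80 to 24.4 CPM on average in each of the 6 WT types and passed the test in none of the comparisons. In neuroblasts its spread was wide, with 60.8, 14.7, 16.7 and 5.55 CPM in pA to pD, and the log2 difference from qNSC1 was 0.73 (edgeR, adjusted p = 0.7).

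Among the effectors, Gli3 showed the deepest decline. It was at 264, 179, 61.3, 34.7 and 288 CPM in qNSC1 of pA to pE, and at 0, 0, 0.225 and 1.11 CPM in neuroblasts of pA to pD, which held 2 Gli3 counts among them. The ratio of the pooled counts was 4376 (95% counting interval 1211 to 36140), and the fall passed the test (edgeR, adjusted p = 0.00017). Gli2 was at 63.6, 53.2, 39.0, 14.3 and 60.2 CPM in qNSC1 and at 0, 0, 0.676 and 1.11 CPM in neuroblasts, and it fell by 7.51 ± 1.58 (SE) on the log2 scale (edgeR, adjusted p = 0.0034). For both genes the groups did not overlap and the neuroblasts were lower in 4 of 4 preparations.

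Gli1, the effector that is itself a target of the pathway, did not follow them in this comparison. It was at 29.3, 5.30, 15.9, 11.8 and 10.9 CPM in qNSC1 of pA to pE, at 0 CPM in neuroblasts of pA, pB and pC, and at 38.8 CPM in the 7 neuroblasts of pD. The 35 counts in pD came from 2 cells, of which 1 held 51.4%. The log2 difference of -0.61 did not pass (edgeR, adjusted p = 0.87). It was 0.31 without pA, and without pD it was -9.95 and passed (adjusted p = 0.011). In aNSC, Gli1 was at 38.8, 24.5 and 54.7 CPM in pC, pD and pE, and in qNSC2 it was at 0, 47.2, 71.5 and 9.44 CPM in pA, pB, pD and pE.

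The steps between neighbouring types were mostly within the spread between preparations. Between qNSC2 and qNSC1 0 members passed in edgeR (2 at an unadjusted p below 0.05, 1 called by DESeq2), against 0.0805% of all genes. Between aNSC and qNSC2 0 members passed (2 at an unadjusted p below 0.05, 0 by DESeq2), against 0.194%. Between TAP and aNSC 0 members passed (1 at an unadjusted p below 0.05, 0 by DESeq2), against 0% of all genes, of which 937 had an unadjusted p below 0.05 and 171 were called by DESeq2. With preparation as a block these counts over all genes were 60 in place of 12, 307 in place of 29 and 18 in place of 0. From TAP to neuroblast 1 member passed, against 0.0939%: Gli3, at 15.2, 8.37 and 52.6 CPM in TAP of pC, pD and pE, with a pooled ratio of 470 (95% counting interval 129 to 3898) and an adjusted p of 0.043 (edgeR; 0.006 with preparation as a block). This call was lost without pA, pB, pC or pE (adjusted p 0.21 to 0.58). Boc, Gas1, Gli2 and Ptch1 had log2 differences of -4.03, -2.99, -3.70 and -1.41 at this step, with adjusted p of 0.35 to 0.43 (edgeR).

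Of the 6 calls between neuroblasts and qNSC1, those of Ptch1, Boc, Cdon, Gli2 and Gli3 were kept when any 1 preparation was left out, and that of Gas1 was lost without pB or pC (adjusted p = 0.062 and 0.10). Within pC and pD alone, the preparations with shallower cells, 0 members passed and the 6 log2 differences kept their signs, from -6.83 for Boc to 4.14 for Cdon. Markers moved with these genes: 6 of 6 astrocyte markers fell and 5 of 5 tested neuroblast markers rose in the same comparison, and their part in the members' changes was not tested. Over all genes, preparation as a block gave 2873 calls in place of 1846.

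**Figure D2:**
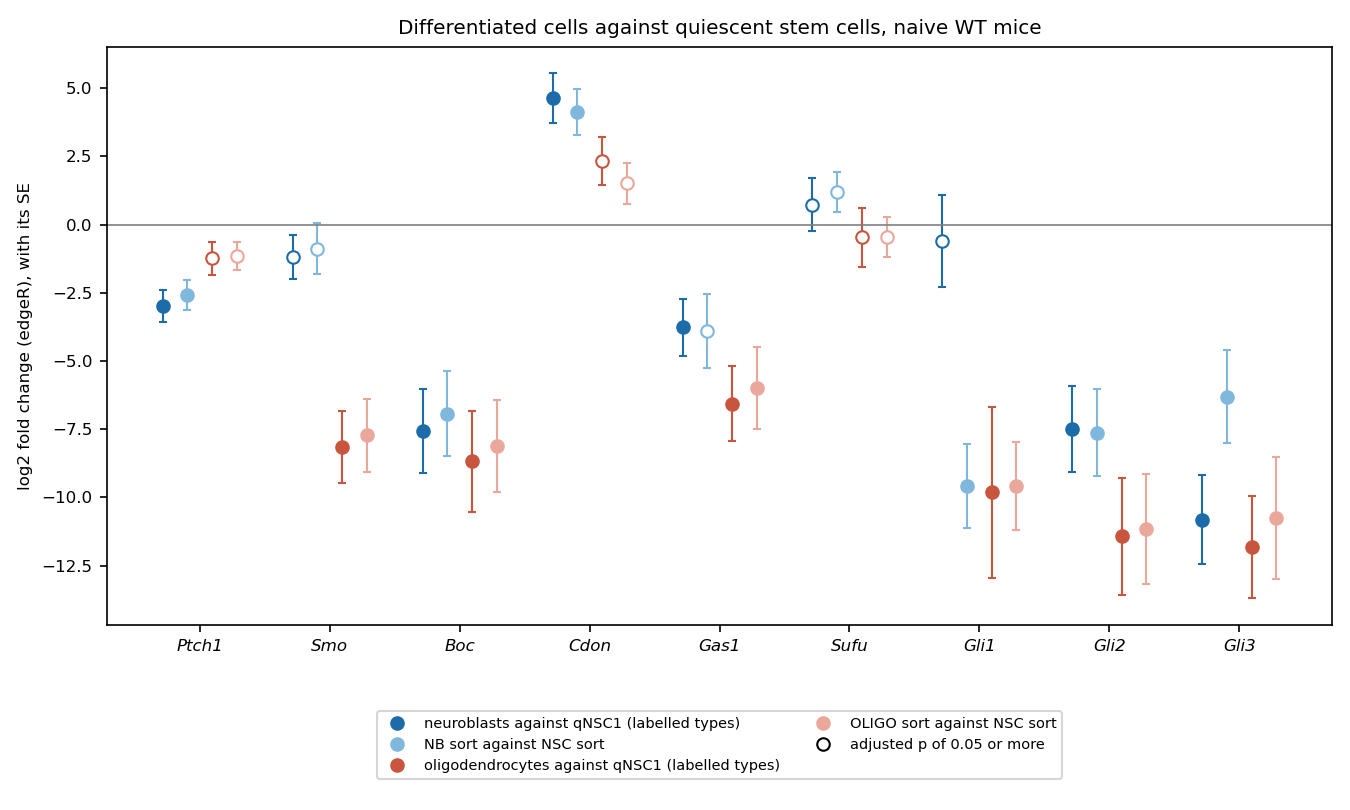
Log2 fold change (edgeR) of each of the 9 genes in the comparisons of WT types and WT surface sorts, with bars of 1 SE and filled points where the adjusted p is below 0.05. Cdon is the only one of the 9 above 0 with a filled point in the neuroblast comparisons, and Gli1, Gli2, Gli3, Smo, Boc and Gas1 are filled and below 0 in oligodendrocytes.

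In WT oligodendrocytes, 6 of the 9 members fell against qNSC1 and 0 rose (edgeR), against 11% of all genes. Gli1 and Gli2 had 0 counts in the 58 oligodendrocytes of pA, pB and pC, which put them at least 186-fold and 585-fold lower than in qNSC1 by a floor of 3 counts over the group (adjusted p = 0.048 and 0.0011). Gli3 had 1 count and Boc 2, for pooled ratios of 8043 (95% counting interval 1443 to 317700) and 858 (237 to 7091), with adjusted p of 0.00019 and 0.0029. Gas1, at 0.164, 1.33 and 0 CPM in pA, pB and pC, fell by 6.56 ± 1.36 (SE) on the log2 scale (edgeR, adjusted p = 0.0023). Cdon, at 25.6, 9.10 and 11.9 CPM, was above qNSC1 in 3 of 3 preparations with a log2 difference of 2.32 that did not pass (edgeR, adjusted p = 0.098). The call of Gli1 was lost without pA, pB, pC or pE (edgeR, adjusted p 0.088 to 0.17), within pA, pB and pE (0.073), with sums of at least 5 cells (0.059) and with cells weighted equally (limma, 0.16). The other 5 were kept when any 1 preparation was left out, though Gas1 was lost within pA, pB and pE (edgeR, adjusted p = 0.069).

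Other pathway genes were read from lists of 29 further Hedgehog genes, 15 ciliary trafficking genes and 10 known targets, and the first and last lists overlap. Of 25 tested Hedgehog genes, 2 rose and 2 fell in neuroblasts against qNSC1, with a median log2 fold change of 0.06. Of all genes tested, 12.4% were called in this comparison. Scube2, which helps release the ligand, was at 0.0229 CPM in qNSC1 and rose to 14.3 CPM in neuroblasts (adjusted p = 0.0062 in edgeR), and Gpr161, a ciliary receptor that restrains the pathway, rose from 0.516 to 36.6 CPM (adjusted p = 0.0065). Evc, which binds Smo at the cilium, fell by 3.70 ± 0.99 on the log2 scale, and Arrb1, a beta-arrestin, fell by 2.65 ± 0.72 (edgeR, adjusted p = 0.017 and 0.018). Of 15 ciliary genes 0 passed (2 at an unadjusted p below 0.05), with a median of 0.16.

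Targets split in the same comparison, in which 12.4% of all genes were called. Of 8 tested, the cell cycle and growth genes Ccnd2 (465.8 CPM in qNSC1 and 5536 CPM in neuroblasts) and Mycn (0.929 and 59.9 CPM) rose, with adjusted p of 0.035 and 0.0015 in edgeR. By contrast Nkx6-2, a homeobox factor, fell from 25.2 to 0.0625 CPM (adjusted p = 0.026). Ccnd2 and Mycn are also expressed in cycling cells, and their list median was -0.99.

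In oligodendrocytes 2 of 25 other Hedgehog genes rose and 5 fell against qNSC1, where 11% of all genes were called. Hhip, a decoy receptor that binds the ligand and a target of the pathway, was at 168 to 406 CPM in oligodendrocytes and at 0 to 19.6 CPM in qNSC1, and it rose by 5.70 ± 1.68 (SE) on the log2 scale (edgeR, adjusted p = 0.031). Spop, an adaptor for Gli degradation, rose by 1.87 ± 0.49 (adjusted p = 0.013). Disp1, Evc2 and Kif7 had 0 counts in oligodendrocytes, which put them at least 205-fold, 302-fold and 217-fold lower by the floor over the group, and Evc and Arrb1 fell by 7.30 and 5.25 on the log2 scale (edgeR, adjusted p of 0.00063 to 0.013 for the 5). Of the ciliary genes only Dync2h1, the motor of retrograde transport, passed, as it fell by 2.28 ± 0.74 (edgeR, adjusted p = 0.048), and the target genes Ccnd2 and Bcl2 fell (log2 -7.85 and -4.22, adjusted p = 0.0019 and 0.011).

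The ligands themselves were close to absent. Over 52 sums of labelled types, Shh had counts in 1 (8 counts in 2 olfactory bulb cells, 0.866 CPM), Ihh in 5 (at most 2.67 CPM, from 1 cell) and Dhh in 11 (at most 5.69 CPM, from 1 cell).

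The surface sorts, which do not rest on type labels, were compared next. Between the sorts titled NB (neuroblast-labelled cells for the most part) and NSC of pA, pB and pC, 5 members fell and 1 rose (edgeR), against 11.8% of all genes. Gli1 had 0 counts in the NB sorts and 17.4, 3.03 and 10.2 CPM in the NSC sorts of pA, pB and pC, at least 123-fold lower by the floor over the group (adjusted p = 0.0055). Gli2 had 3 counts in the NB sorts, all in pC, for a pooled ratio of 351 (95% counting interval 120 to 1707; adjusted p = 0.012), and Gli3 was at 0, 0 and 3.86 CPM against 122, 77.9 and 48.3 CPM (log2 difference -6.30 ± 1.69, adjusted p = 0.03). In pC, 5 of 27 NB-sorted cells carried the TAP label. The NSC sorts of pA and pB held 1 of 9 and 7 of 15 cells labelled oligodendrocyte. All 6 oligodendrocyte markers were lower in NB than in NSC sorts, and 5 of them passed (edgeR), whereas between labelled neuroblasts and qNSC1 all 6 were higher and 1 passed. Their part in the differences of the members between sorts was not tested.

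Ptch1 was at 37.3, 46.3 and 48.9 CPM in the NB sorts against 325, 208 and 229 CPM in the NSC sorts, and it fell by 2.59 ± 0.55 (SE) on the log2 scale (edgeR, adjusted p = 0.0094). Boc was at 0, 0.417 and 0.227 CPM against 36.0, 8.77 and 38.1 CPM, and it fell by 6.93 ± 1.54 (adjusted p = 0.012). Cdon was at 183, 115 and 89.8 CPM against 5.98, 12.6 and 1.77 CPM, and it rose by 4.12 ± 0.83 (adjusted p = 0.0069). For these 3 genes, as for the 3 Gli genes, the sorts of the 3 preparations did not overlap. The share of all genes that did so was not counted. Gas1, lower in 3 of 3 preparations, missed the threshold (edgeR, adjusted p = 0.082) and passed it with preparation as a block (adjusted p = 0.049). All 6 calls were lost without pA or pB, which leaves 2 preparations (adjusted p 0.052 to 0.22), and that of Boc without pC (0.079). With preparation as a block 2681 genes passed in place of 1690.

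The sort titled OLIGO had 6 members lower and 0 higher than the NSC sorts (edgeR), against 6.1% of all genes. Gli1 and Gli2 had 0 counts there, at least 105-fold and 310-fold lower by the floor over the group, and Gli3 and Boc held 1 and 2 counts (adjusted p of 0.0072 to 0.012 for these 4). Smo fell by 7.73 ± 1.33 and Gas1 by 5.98 ± 1.501 (SE) on the log2 scale (edgeR, adjusted p = 0.0034 and 0.032). Ptch1, at 112, 85.1 and 94.9 CPM, was lower in 3 of 3 preparations, but the log2 difference of -1.15 did not pass (adjusted p = 0.26). In the NSC sorts of pA and pB oligodendrocyte markers summed to 9080 and 39280 CPM, against 34.98 CPM in pC. Without pA, pB or pC the number of members passing was 1, 0 or 2.

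In the sorts, 2 of 25 other Hedgehog genes rose and 3 fell in NB cells, where 11.8% of all genes were called. Gpr161 and the kinase Gsk3b rose (log2 6.44 and 1.48). Scube1, Evc and Arrb1 fell by 7.62, 5.05 and 2.10, and adjusted p of all these was 0.011 to 0.045 (edgeR). The ciliary gene Mks1 and the target Nkx6-2 fell (log2 -4.19 and -6.76, adjusted p = 0.015 and 0.0037). Scube2, Ccnd2 and Mycn, which rose in labelled neuroblasts, did not pass between these sorts, though each had an unadjusted p below 0.05 (edgeR). In OLIGO cells, where 6.1% of all genes were called, Disp1, Evc2 and Kif7, all at 0 counts, were lower. So were Scube1, Evc and Arrb1 (edgeR, adjusted p of 0.0013 to 0.036 with those at 0) and Ccnd2 (adjusted p = 0.011). Hhip and Spop, which rose in labelled oligodendrocytes, did not pass in this sort, where 0 other Hedgehog genes were called higher. The ASTRO sort, which holds lineage cells by label, differed from the NSC sort in 0 members by edgeR (1 at an unadjusted p below 0.05, 1 called by DESeq2), against 0.0906% of all genes, or 39 genes in place of 13 with preparation as a block. The member called by DESeq2 was Cdon, at 19.1, 70.3 and 47.5 CPM in ASTRO sorts (log2 difference 2.50, adjusted p = 0.27 in edgeR and 0.031 in DESeq2). ASTRO sorts of pA, pB and pC held neuroblast markers at 587, 3548 and 4273 CPM, against 24.9, 79.5 and 281 CPM in the NSC sorts, and their part in the Cdon level was not tested.

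Naive TiCY (pM) and knockout (pJ) mice gave a further look at the lineage. Of the 9 members, 6 fell in neuroblasts against qNSC2 and 0 rose (edgeR), against 9.88% of all genes, of which 277 were higher and 1305 lower. The median log2 difference was -7.74 over the members and -0.69 over all genes. Gli1, Gli2 and Gas1 had 0 counts in the 23 neuroblasts and were at 21.6 and 7.52, 89.4 and 40.8, and 31.3 and 21.7 CPM in qNSC2 of pM and pJ. By the floor over the group they were at least 18.6-fold, 83.0-fold and 33.8-fold lower (adjusted p = 0.041, 0.0057 and 0.0026). Gli3 and Boc held 1 count each in neuroblasts, for pooled ratios of 488 (95% counting interval 87.4 to 19270) and 233 (41.6 to 9202), with adjusted p of 0.00096 and 0.012 (edgeR). The call of Gli1 was lost without the filter on low counts (adjusted p = 0.057).

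Smo was at 0 and 2.57 CPM in these neuroblasts and at 83.3 and 69.1 CPM in qNSC2 of pM and pJ, and it fell by 6.11 ± 1.42 (SE) on the log2 scale (edgeR, adjusted p = 0.016). Cdon was at 50.3 and 4.50 CPM in neuroblasts and at 20.1 and 73.3 CPM in qNSC2, higher in 1 preparation and lower in the other. Ptch1 was at 37.5 and 0 CPM against 186 and 136 CPM, and its log2 difference of -3.09 did not pass in edgeR (adjusted p = 0.15) but passed in DESeq2 (0.042). Among the lists, Scube2 and Gsk3b rose, and Evc, Evc2 and Tulp3 fell, as did the ciliary genes Ift80 and Dync2h1 (edgeR, adjusted p of 0.0023 to 0.039). Of the targets Ccnd2 rose from 813 to 5944 CPM, and Sfrp1 and Nkx6-2 fell to 0 counts (adjusted p of 0.00015 to 0.024).

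Astrocytes, including those of regions without neurogenesis, held the highest Gli3 and Gli2 levels of the naive TiCY and knockout types. Per kilobase, Gli3 stood at 41.5 CPM in striatal astrocytes, 22.03 in vSVZ astrocytes and 13.4 in qNSC2, and Gli2 at 17.9, 14.9 and 9.48. Gli3 was at 297 and 499 CPM in striatal astrocytes of pM and pJ and at 139 and 284 CPM in vSVZ astrocytes. Between striatal and vSVZ astrocytes 0 members passed (edgeR; 0 at an unadjusted p below 0.05, 0 by DESeq2), against 0% of all genes, of which 144 had an unadjusted p below 0.05 and 9 were called by DESeq2. Between qNSC2 and vSVZ astrocytes 0 members passed (0 at an unadjusted p below 0.05, 0 by DESeq2), against 0.0125%. Cdon was at 20.1 and 73.3 CPM in qNSC2 against 3.24 and 8.96 CPM in vSVZ astrocytes of pM and pJ (log2 difference 2.72, adjusted p = 1), and the target Ccnd2 was higher in qNSC2 by 2.57 ± 0.31 (edgeR, adjusted p = 0.019).

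Cortical astrocytes were sampled in 1 preparation (pL), so they are compared with striatal astrocytes of that preparation as values without a test. Of the 9 members 1, Boc, was past 2-fold (computed on CPM + 5), against 23.4% of genes: it was at 72.3 CPM in cortex and 17.5 CPM in striatum. Gli3 (521 and 471 CPM), Gli2 (145 and 174 CPM), Sufu (80.1 and 81.1 CPM) and Gli1 (17.3 and 17.1 CPM) were close in the pair of regions. Cdon had 0 counts in cortex and was at 2.98 CPM in striatum. In pE, striatal astrocytes and qNSC1 of the same preparation differed past 2-fold in 3 members, against 23.2% of genes. Gli1 was at 42.8 against 10.9 CPM, Cdon at 30.5 against 1.58 CPM, and Smo at 19.8 against 84.4 CPM.

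Cells of the olfactory bulb (pF), where neuroblasts arrive and mature, had 0 counts of Gli1, Gli2, Gli3 and Boc in 55 cells, which allows up to 0.325 CPM. Cdon was at 41.7 CPM and Ptch1 at 30.3 CPM. Against the mean of the 4 WT vSVZ neuroblast sums, 4 of 9 members were more than 2-fold lower (on CPM + 5). These were Gli1, Smo (1.30 against 27.3 CPM), Cdon (41.7 against 103 CPM) and Sufu (5.41 against 24.4 CPM). Of genes with at least 10 CPM in either group, 43.4% were past 2-fold. Gli1, Gli2, Gli3, Boc and Gas1 were below 10 CPM in both groups, so the shares are not like measures. The neuroblast mean of Gli1 came from pD alone, and that of Sufu rested on pA, at 60.8 CPM, with 14.7, 16.7 and 5.55 CPM in pB to pD.

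The comparison of regions was repeated with cells sorted by GLAST, an astrocyte and stem cell surface antigen, from the striatum and vSVZ of 5 arms: naive pM, naive pJ, 2-day pI, 2-day pJ and 21-day pH. With the arm as a term, 2 of 9 members passed (edgeR), 1 in each direction, against 2.97% of the genes tested. Gli2 was at 111, 134, 46.7, 81.3 and 160 CPM in the striatum (order as listed) and at 94.4, 59.7, 14.1, 24.3 and 80.4 CPM in the vSVZ, higher in the striatum in 5 of 5 arms (log2 1.24 ± 0.30 SE, adjusted p = 0.048). Cdon was at 2.30, 1.60, 12.96, 23.1 and 14.95 CPM in the striatum and at 14.3, 33.1, 98.6, 46.6 and 40.8 CPM in the vSVZ, lower in 5 of 5 arms (log2 -2.33 ± 0.49 SE, adjusted p = 0.029).

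Gli3 was at 297, 499, 877, 225 and 242 CPM in the striatum and at 111, 208, 30.6, 48.6 and 152 CPM in the vSVZ, with no overlap between the regions, and just missed the threshold (edgeR, log2 2.01 ± 0.51 SE, adjusted p = 0.058). In the 2-day pI striatum 38.6% of the Gli3 counts came from 1 of 122 cells. Without that arm Gli3 passed, with a log2 difference of 1.43 (adjusted p = 0.012). The call of Gli2 rests on all 5 arms, as it was lost on leaving out any 1 arm (edgeR, adjusted p 0.059 to 0.15). That of Cdon was lost on leaving out any but the 21-day arm (0.057 to 0.097). The log2 differences stayed at 1.07 to 1.47 for Gli2 and at -1.94 to -2.67 for Cdon. Without the arm term 0 members passed, with adjusted p of 0.43 for Gli2 and 0.32 for Cdon. The sum of 6 neuroblast markers differed between the sorts too, at 19.6 to 684 CPM in the striatum and 532 to 4616 CPM in the vSVZ, and their part in the Cdon difference was not tested. The 6 astrocyte markers were all higher in the striatal sort, with a median log2 difference of 0.73, and 1 of them, S100b, passed (edgeR). Their part in the differences of Gli2 and Gli3 was not tested. Tulp3, an adaptor for ciliary receptors, rose in the striatum by a log2 of 1.10 ± 0.26 (edgeR, adjusted p = 0.044), and Ccnd2 was lower by 2.56 ± 0.30 (adjusted p = 0.0072).

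**Figure D3:**
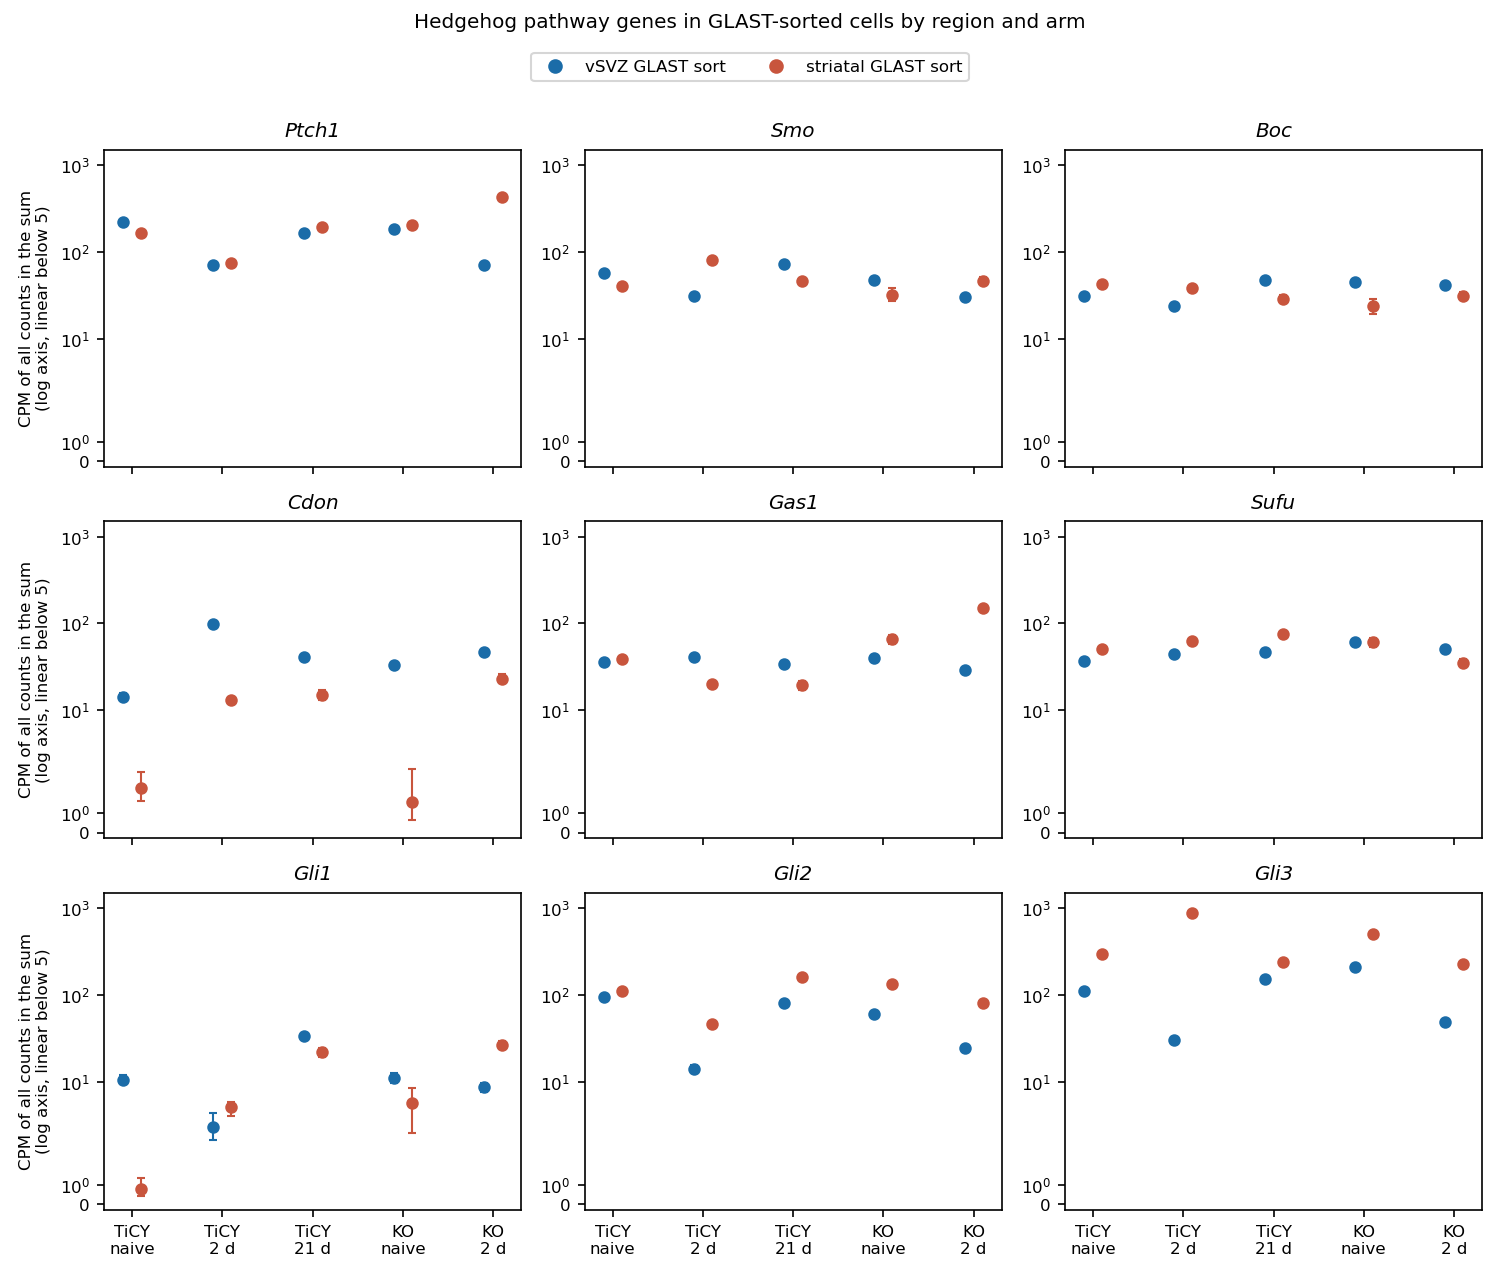
Level of each of the 9 genes in GLAST-sorted cells of the vSVZ and striatum, in CPM, with 1 point for each preparation and time (naive, 2 days, 21 days after ischemia). In the vSVZ the 2-day points for Gli2, Gli3 and Ptch1 lie below the naive ones and those for Cdon lie above.

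Ischemia was followed by lower Gli2, Gli3 and Ptch1 and higher Cdon in the vSVZ GLAST sort at 2 days. In the comparison of 2 days with naive, with genotype as a term, 3 members fell and 1 rose (edgeR), against 10.9% of all genes. Gli2 was at 94.4 and 59.7 CPM in naive pM and pJ, at 14.1 and 24.3 CPM at 2 days in pI and pJ, and at 80.4 CPM at 21 days in pH. It fell by 2.09 ± 0.47 (SE) on the log2 scale (adjusted p = 0.00029). Gli3 was at 111 and 208 CPM in naive mice, at 30.6 and 48.6 CPM at 2 days and at 152 CPM at 21 days, and it fell by 2.05 ± 0.42 (edgeR, adjusted p = 4.3e-05). Ptch1 was at 219 and 184 CPM, at 70.2 and 70.6 CPM and at 166 CPM, and it fell by 1.58 ± 0.40 (adjusted p = 0.002). In all 3 genes both 2-day sums lay below both naive sums, and the single 21-day sum lay above both 2-day sums. The 3 genes were picked by this same comparison, and the share of all genes in this order was not counted.

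Cdon was at 14.3 and 33.1 CPM in naive mice, at 98.6 and 46.6 CPM at 2 days and at 40.8 CPM at 21 days, and it rose by 1.56 ± 0.50 (SE) on the log2 scale (edgeR, adjusted p = 0.022; 0.12 without the 21-day arm). This model has 1 residual degree of freedom and takes its spread from the trend over all genes, and pM and pI are separate preparations. The sort also held other cells at 2 days. The 6 astrocyte markers summed to 27050 and 22880 CPM in naive pM and pJ and to 6215 and 10250 CPM at 2 days in pI and pJ, while neuroblast markers summed to 744 and 532 CPM and to 4616 and 2187 CPM. In pJ, neuroblast-labelled cells were 8 of 134 (5.97%) in naive mice and 76 of 228 (33.3%) at 2 days. The part of this makeup in the 4 changes was not tested across preparations. With every cell given the same weight, Gli3 and Ptch1 passed and Gli2 and Cdon did not (limma, adjusted p = 0.12 and 0.28).

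Other pathway genes moved in the same sort, where 10.9% of all genes were called. Gpr161 rose by a log2 of 2.16 ± 0.63 (SE), and Tulp3 and Fbxw11, a subunit of a ubiquitin ligase that acts on Gli proteins, fell by 1.27 and 1.37 (edgeR, adjusted p of 0.0095 to 0.026), among 27 tested with a median of 0.01. Of 9 tested targets the cyclins Ccnd1 and Ccnd2 rose by 2.39 and 1.86, and Bcl2, a survival factor, and Nkx6-2 fell by 1.87 and 2.27 (adjusted p of 0.00049 to 0.0048). Of 15 ciliary genes 0 passed (4 at an unadjusted p below 0.05).

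Within labelled types of pJ, the values at 2 days could be set beside the naive ones, without a test. The genotype label differs too, IFN(A/G)R KO when naive and TiCY-IFN(A/G)R KO at 2 days, and cannot be told apart from ischemia here. In vSVZ astrocytes 4 members were past 2-fold, against 38% of genes: Gli2 was at 37.3 against 84.4 CPM, Gli3 at 120 against 284 CPM, Cdon at 0.352 against 8.96 CPM and Boc at 136 against 40.9 CPM. Ptch1 was at 194 against 225 CPM in the same cells. That share of members was near the 38%, which was taken over genes of at least 10 CPM at either time. Cdon did not reach that level. The values came from 1 preparation at each time, and with cells weighted equally 2 members were past 2-fold in place of 4. In qNSC2 cells 1 member, Sufu, was past 2-fold (63.3 against 22.6 CPM), against 39.9% of genes, with Gli2 at 45.9 against 40.8 CPM, Gli3 at 89.3 against 138 CPM and Ptch1 at 76.5 against 136 CPM.

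**Figure D4:**
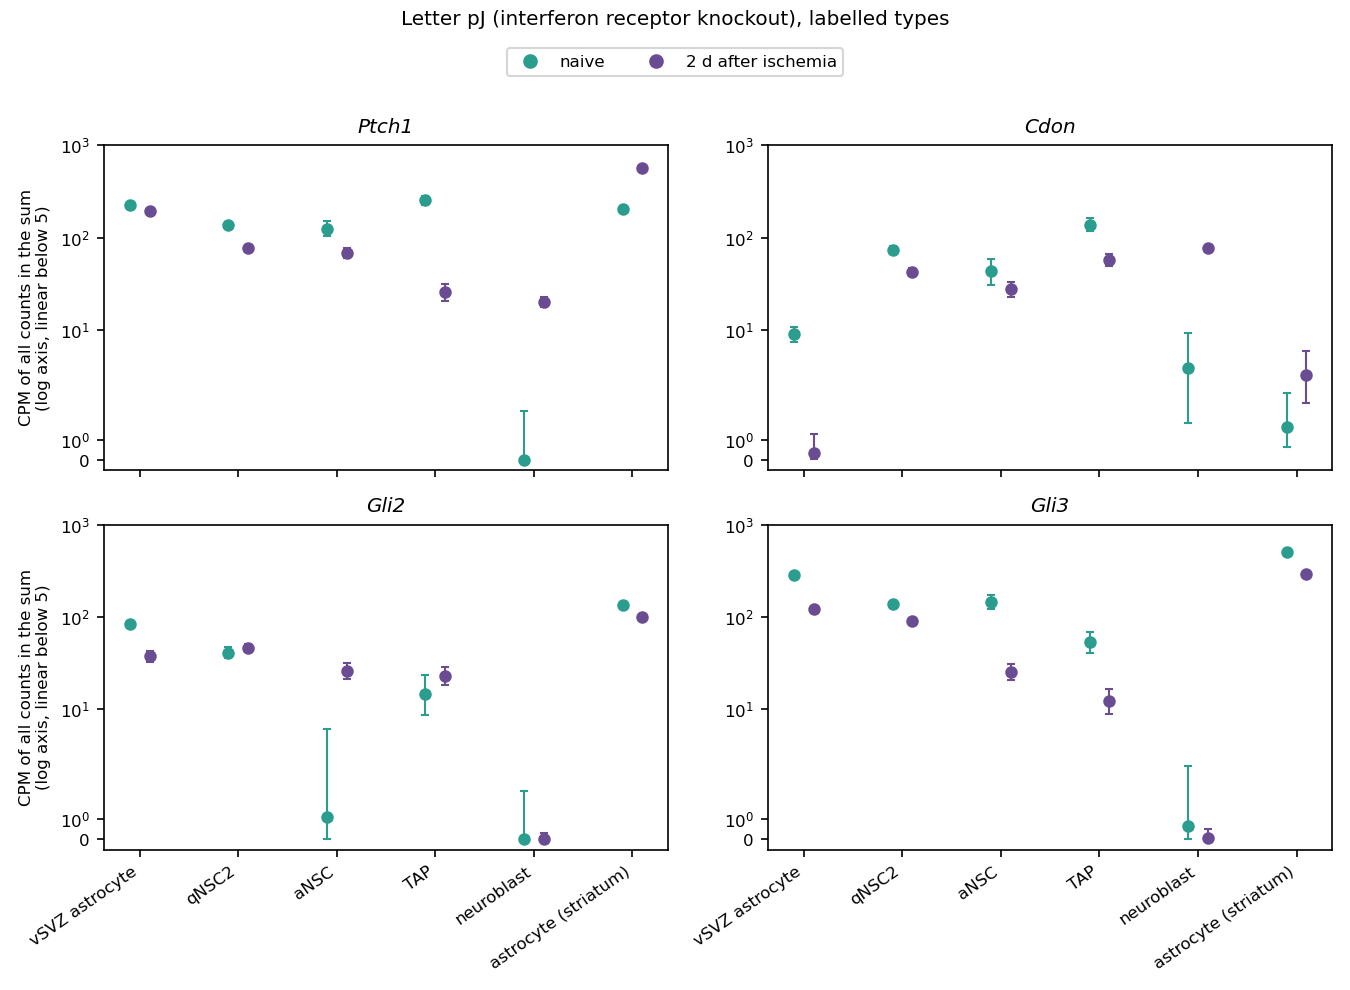
Level of Ptch1, Cdon, Gli2 and Gli3 in labelled types of the interferon receptor knockout preparation pJ, naive and 2 days after ischemia. Levels are in CPM with exact 95% Poisson intervals that cover counting error only. With 1 preparation there is no test, and the genotype label differs between the times. Gli2 is at 37.3 against 84.4 CPM when naive in vSVZ astrocytes, and at 45.9 against 40.8 CPM in qNSC2.

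In the striatal GLAST sort 0 members passed between 2 days and naive (edgeR; 1 at an unadjusted p below 0.05, 0 by DESeq2), against 2.3% of all genes. Ptch1 was at 166 and 206 CPM in naive pM and pJ and split at 2 days, at 74.4 CPM in pI and 427 CPM in pJ. Gli1 was at 0.808 and 5.71 CPM in naive mice and at 5.17 and 26.5 CPM at 2 days (log2 difference 2.32, adjusted p = 0.63). Around the members, 4 of 9 tested targets rose: Ccnd1 by a log2 of 4.06, Ccnd2 by 2.64, Mycn by 10.46 and Sfrp1 by 3.85 (edgeR, adjusted p of 0.0013 to 0.032). Lrp2, an endocytic receptor for the ligand, also rose (adjusted p = 0.0011), but stood at 67.4 CPM in pI and 1.77 CPM in pJ at 2 days. Mycn had 0 counts in both naive sums and was at 2.00 and 42.7 CPM at 2 days in pI and pJ, so its fitted fold is no measure of size. All 6 neuroblast markers rose in the same comparison. The edgeR model here has 1 residual degree of freedom and takes its spread from the trend over all genes. With every cell given the same weight 5 genes passed in place of 515. In pJ the striatal cells labelled neurogenic astrocytes held Mycn at 173 CPM and Ccnd2 at 3758 CPM, and the other striatal astrocytes held 0.133 and 87.6 CPM.

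The difference between the regions' responses was tested directly with an interaction term. None of the 9 members passed after adjustment (edgeR), although 3 had an unadjusted p below 0.05: Gli3 (difference of log2 changes 2.64, adjusted p = 0.51), Gli1 (3.43, adjusted p = 0.72) and Ptch1 (1.77, adjusted p = 0.82). Over 26196 genes, 25 passed. The falls of Gli2, Gli3 and Ptch1 in the vSVZ sort are therefore not shown to be particular to that region.

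Striatal astrocytes labelled neurogenic, a state seen 2 days after ischemia, were set beside the other striatal astrocytes of the same pJ preparation, without a test. They differed past 2-fold in 5 of 9 members, against 43.5% of genes. Gli1 was at 9.45 against 34.6 CPM, Gli2 at 36.3 against 99.9 CPM, Gli3 at 75.6 against 290 CPM and Ptch1 at 85.4 against 569 CPM, all lower in the neurogenic cells. Cdon was at 82.0 against 4.13 CPM, higher in them. Smo (42.0 and 51.0 CPM), Boc (29.1 and 31.7 CPM), Gas1 (145 and 162 CPM) and Sufu (38.6 and 28.6 CPM) were within 2-fold. In the 6 neurogenic cells of pI, Gli3 was at 15.8 CPM, Gli2 at 40.5 CPM, Ptch1 at 99.8 CPM and Cdon at 21.99 CPM. The 6 astrocyte markers summed to 8048 CPM in the neurogenic cells of pJ against 27550 CPM in the other striatal astrocytes, and neuroblast markers to 2628 against 44.6 CPM.

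In the striatal astrocytes of pJ, 3 of 9 members were past 2-fold at 2 days against naive, again in 1 preparation and without a test. That share was near the 32.8% of genes of at least 10 CPM at either time, a level that Cdon did not reach. Gli1 was at 34.6 against 5.71 CPM, Ptch1 at 569 against 206 CPM and Gas1 at 162 against 65.5 CPM. Gli3 was at 290 against 499 CPM and Sufu at 28.6 against 60.5 CPM, both within 2-fold on CPM + 5. The genotype label of pJ differs between these times as well. Reactive astrocytes at 2 days had 0 counts of Gli1 and Cdon in both pI (7 cells) and pJ (9 cells), with Ptch1 at 71.7 and 124 CPM. Those of pI came from the striatal sort, and those of pJ were 5 cells of the striatal and 4 of the vSVZ sort.

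Loss of the interferon receptors was not accompanied by a called change in any member. Between knockout and TiCY mice, with time as a term, 0 members passed in the vSVZ sort (edgeR; 1 at an unadjusted p below 0.05, 0 by DESeq2), against 0.596% of all genes, and 0 in the striatal sort (1 and 0), against 0.982%. The members with the smallest unadjusted p were Gli3 in the vSVZ (log2 0.83 ± 0.40 SE, adjusted p = 0.62) and Gas1 in the striatum (log2 1.76 ± 0.75 SE, adjusted p = 0.62). All knockout cells came from 1 preparation letter, so genotype and preparation cannot be told apart. Each of these models has 1 residual degree of freedom and takes its spread from the trend over all genes.

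The members' levels followed each other to different degrees over the 22 WT sums, given as Pearson correlations of log2(CPM + 5) without p, since sums share preparations. Gli2 and Gli3 (r = 0.85), Gli3 and Boc (0.83), Gli2 and Boc (0.81) and Gli2 and Ptch1 (0.80) ran together. Cdon ran against Ptch1 (-0.44) and Gli2 (-0.43), and Sufu was within 0.20 of 0 with each of the others. Over all tested genes, those most like Gli3 were Tspan12 (0.95), Sdc2 (0.95) and Gja1 (0.94), and those most like Gli2 were Tspan12 (0.93), Adhfe1 (0.93) and Ddah1 (0.92). Those most like Boc were Dapp1 (0.93), Rfx4 (0.91) and Pygb (0.91), and most like Gas1 were Myo10 (0.93), Nr2e1 (0.91) and Lhx2 (0.90). Gli1 was close to Evc2 (0.84) and Rcn3 (0.79), and Cdon to Gng2 (0.85), Map1b (0.83) and Ppp3cb (0.83). Ptch1 was closest to Pfn4 (0.85), Smo to Grk3 (0.84) and Sufu to Nek1 (0.75).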

How the data were processed

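RNA of single cells was measured by Smart-seq3. The authors deposited a table of raw counts, made with STAR and featureCounts on GRCm38 (mm10) per the submitters' processing notes; versions and cell filters were not given in the sources used here. In all the table has 2584 cells, of which 1981 could be tied to a label by name; the remaining 603 were left out. Cells held 3771 to 1842234 counts.

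Counts were summed per type or sort and preparation (at least 3 cells). edgeR 4.0.16 (TMM, filterByExpr, quasi-likelihood test) was fitted in R 4.3.3 over all genes, with Benjamini-Hochberg adjustment at 0.05, and the fits were tested on simulated data. DESeq2 1.42.0, limma 3.58.1 on the mean cell CPM + 5, filters, blocks and left-out preparations were alternatives. Groups of 1 preparation were compared without a test as log2 ratios of CPM + 5. The shares of genes past 2-fold were taken over genes of at least 10 CPM in either group. Members were counted without that filter. Intervals (95%) and the floor of 3 counts cover counting error only. Correlations, markers and coordinates used GRCm38 symbols, and promoter windows came from RefSeq.

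Preparations pair the WT sums: the design text calls each letter a biological replicate of 1 or more mice, and same-letter deviations correlated at 0.204 to 0.642 in every WT comparison. Named genes are the 9 members, any called gene of the Hedgehog, ciliary and target lists, and the 3 genes most like each member (fewer are printed for 4 members, and 1 gene is not reported here). The members and lists were chosen with earlier results of these data known.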

Additional observations from a re-analysis of the deposited data

Results flagged for a closer look

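The Gli1 level of the 7 WT neuroblasts of pD stood apart, at 38.8 CPM against 0 in pA, pB and pC; the gap to the next sum was the whole range of the group (1.0, against a critical value of 0.829 for 4 sums). With 0 in pA, pB and pC, any level above 0 in pD gives a gap of 1.0, so the flag does not measure the size of the difference. Of 27 groups of 4 to 10 sums tested this way, 1 was set apart. The rate of about 1 in 20 by chance is for values without such ties.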

How the results depend on the processing

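Among the 9 members, the number passing moved by more than 1.5 times with the tool or the weight of cells in 5 comparisons: DESeq2 called 1 in place of 0 for qNSC2 against qNSC1 and for the ASTRO against the NSC sort, and with every cell weighted equally 1 passed in place of 0 for qNSC2 against qNSC1, 0 in place of 1 for neuroblast against TAP, 0 in place of 2 for striatal against vSVZ GLAST sorts, and 2 in place of 4 at 2 days in the vSVZ sort. Smaller shifts included 7 in place of 6 by DESeq2 for oligodendrocyte against qNSC1, where cells weighted equally gave 5, and 7 by either for the NB sort. Within pC and pD, 0 passed in place of 6 for neuroblast against qNSC1, 1 in place of 6 for oligodendrocyte against qNSC1 and 0 in place of 1 for neuroblast against TAP; within pA, pB and pE that last count was 2, and with sums of at least 5 cells it was 0. Leaving out 1 preparation gave 0 to 1 for neuroblast against TAP, 5 to 7 for neuroblast against qNSC1, 0 to 5 for the NB sort, 0 to 2 for the OLIGO sort and 0 to 1 for the regions' GLAST sorts, where 0 passed with no replicate block. The difference of Gli1 between neuroblasts and qNSC1 changed sign to 0.31 without pA and to 0.50 within pC and pD, and it was -9.95 without pD. With a pseudocount of 1 CPM, 2 members were past 2-fold between cortex and striatum in place of 1, and with cells weighted equally 2 in place of 4 in vSVZ astrocytes of pJ. With preparation as a replicate block, the WT calls of members changed for Gas1 in the NB sort alone. Over all genes, DESeq2 called 286, 974, 171, 321, 2893 and 2485 in the 6 comparisons of WT types (12, 29, 0, 14, 1846 and 1636 in edgeR), 2979, 1883 and 469 in the sorts (1690, 875 and 13), 9, 107 and 3762 in naive types (0, 2 and 1582), 2698 between regions (680), and 1090 and 350 in the striatal sort for time and genotype (515 and 220). Cells weighted equally gave 270, 574, 10 and 74 for the first 4 comparisons, 1321 and 56 for the OLIGO and ASTRO sorts, 7 and 2539 for the last pair of naive comparisons, 533 and 2 for the vSVZ sort (2638 and 144) and 5 and 0 for the striatal sort. Without a filter on low counts, 102 genes passed for the ASTRO sort, 8 and 69 for the first pair of naive comparisons and 1803 between regions; 0 passed there with no replicate block, and 3 to 664 on leaving out 1 arm. Leaving out 1 preparation could not be fitted for the naive TiCY and knockout types, and the fits by arm allowed only the 21-day arm to be left out. The causes of these shifts were not tested. Depth limits the levels near 0: sums of few shallow cells set floors of up to 1.22 CPM over a group, reached in TAP of the naive TiCY and knockout mice. The 8 and 15 naive neuroblasts set a floor of 0.785 CPM.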

Other observations

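Oligodendrocytes of the naive TiCY preparation pM, which entered no comparison, held Ptch1 at 58.5 CPM, Cdon at 5.12 CPM and Sufu at 0.568 CPM, and had 0 counts of the other 6 members.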
